A study of Mus musculus with 19 samples.

Results

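The genes described here are Arc, Homer1, Plk2, Plk3, Nptx1, Nptx2 and Nptxr, a set of neuronal transcripts whose proteins act at excitatory synapses. They were followed on arrays of cultured mouse hippocampal neurons in which NMDA receptors, the glutamate-gated and calcium-permeable channels of those synapses, had been blocked. Every gene probe whose name in the array files was one of these 7 symbols was taken. That gave 9 probes for 6 of the 7 genes, out of 27569 gene names on the array: 4 probes for Homer1 and 1 each for Arc, Plk2, Plk3, Nptx1 and Nptx2. No probe carried the name Nptxr. A further 2 probes, named Npcd in the files, list the Nptxr transcript among their targets. Npcd, short for neuronal pentraxin with chromo domain, is a separate gene in RefSeq, so those 2 probes cannot tell Nptxr from Npcd, and they are given as Npcd/Nptxr and kept out of the counts. The rule uses gene names and no measured value.

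All cultures were dissociated hippocampal neurons kept for 21 days in vitro and treated for 6 h, and none carried a genetic change according to the labels. The groups were vehicle (5 arrays), 100 µM AP5 (5 arrays), 100 nM NVP-AAM077 (4 arrays, called NVP) and 1 µM Ro25-4891 (5 arrays, called Ro25). AP5 competes with glutamate at all NMDA receptors, and NVP-AAM077 is a competitive blocker that favours GluN2A-containing receptors. The prefix Ro25 belongs to a known blocker of receptors with the GluN2B subunit, but that blocker has another number, and the sources used here do not say which compound was meant. The doses of the 3 compounds differ, so comparisons between them are between the treatments as given. The labels do not say that arrays of a group came from separate cultures, so each p-value rests on a spread between samples that may only be technical.

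On each array the neuron RNA was labelled red (Cy5) and a commercial universal mouse reference RNA green (Cy3), and the level of a probe is the log2 ratio of red over green. A value of 1 is therefore a signal 2 times that of the reference, and levels of different probes cannot be set against each other. A difference was called where the adjusted p of the limma model (Benjamini-Hochberg over 28650 probes) was under 0.05. All 10 neuron markers were well above background on every array, with a mean log2 ratio of 3.90 to 4.35 per array. All 12 astrocyte markers were too, at a mean of 2.57 to 4.19, so these cultures were not of neurons alone. Of 11 oligodendrocyte lineage markers, 9 to 11 per array were well above background, at a mean of 1.42 to 2.44. So were 6 to 8 of 8 microglial and 8 to 10 of 10 endothelial, mural or fibroblast markers. The means of these last 2 lists were low against the reference RNA, at -2.36 to -2.00 and -2.49 to -2.21. A low ratio does not say that such cells were absent. In such bulk RNA, fewer cells of a type and less RNA per cell cannot be told apart. The 4 or 5 arrays of a group lay on few slides. AP5 1 to 4 filled slide 1, vehicle 1, 3, 4 and 5 lay on slide 5, and AP5 shared no slide with vehicle. A difference between AP5 and vehicle therefore cannot be told apart from one between slides. AP5 5 lay on slide 2 with NVP 1 and NVP 3.

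The members fall into 3 kinds. Arc and the short form of Homer1 are immediate early gene products, made within minutes to hours of synaptic calcium entry: Arc speeds the endocytosis of AMPA receptors, and short Homer1 uncouples group I metabotropic glutamate receptors from the long Homer scaffold. Plk2 and Plk3 are polo-like kinases. Plk2 is known in hippocampal neurons for a slow, homeostatic weakening of strongly driven synapses, and Plk3 is a stress-responsive relative. Nptx1 and Nptx2 are secreted pentraxins that cluster AMPA receptors from outside the cell, and Nptxr is their membrane-bound partner. Nptx2 is the activity-induced pentraxin, and Nptx1 is made more constantly.

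With AP5, 2 of the 9 probes were called lower than with vehicle, those of Arc and Plk3, at 44.7% and 38.5% of their vehicle level. The middle probe of Homer1 was called higher. Plk2, Nptx1, Nptx2 and the other 3 Homer1 probes did not pass the test. Across the array 17.0% of the probes tested were called between AP5 and vehicle, 6.76% lower and 10.2% higher with AP5. The share of member probes called (3 of 9) stands beside that background. Of all 28650 probes, 23 were called and lower by at least 1 on the log2 scale, and those of Arc and Plk3 were among them. None of the 9 probes was called with NVP or with Ro25 against vehicle, where the share called over the array was 0% (2334 and 1631 probes had an unadjusted p under 0.05).

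**Figure D1:**
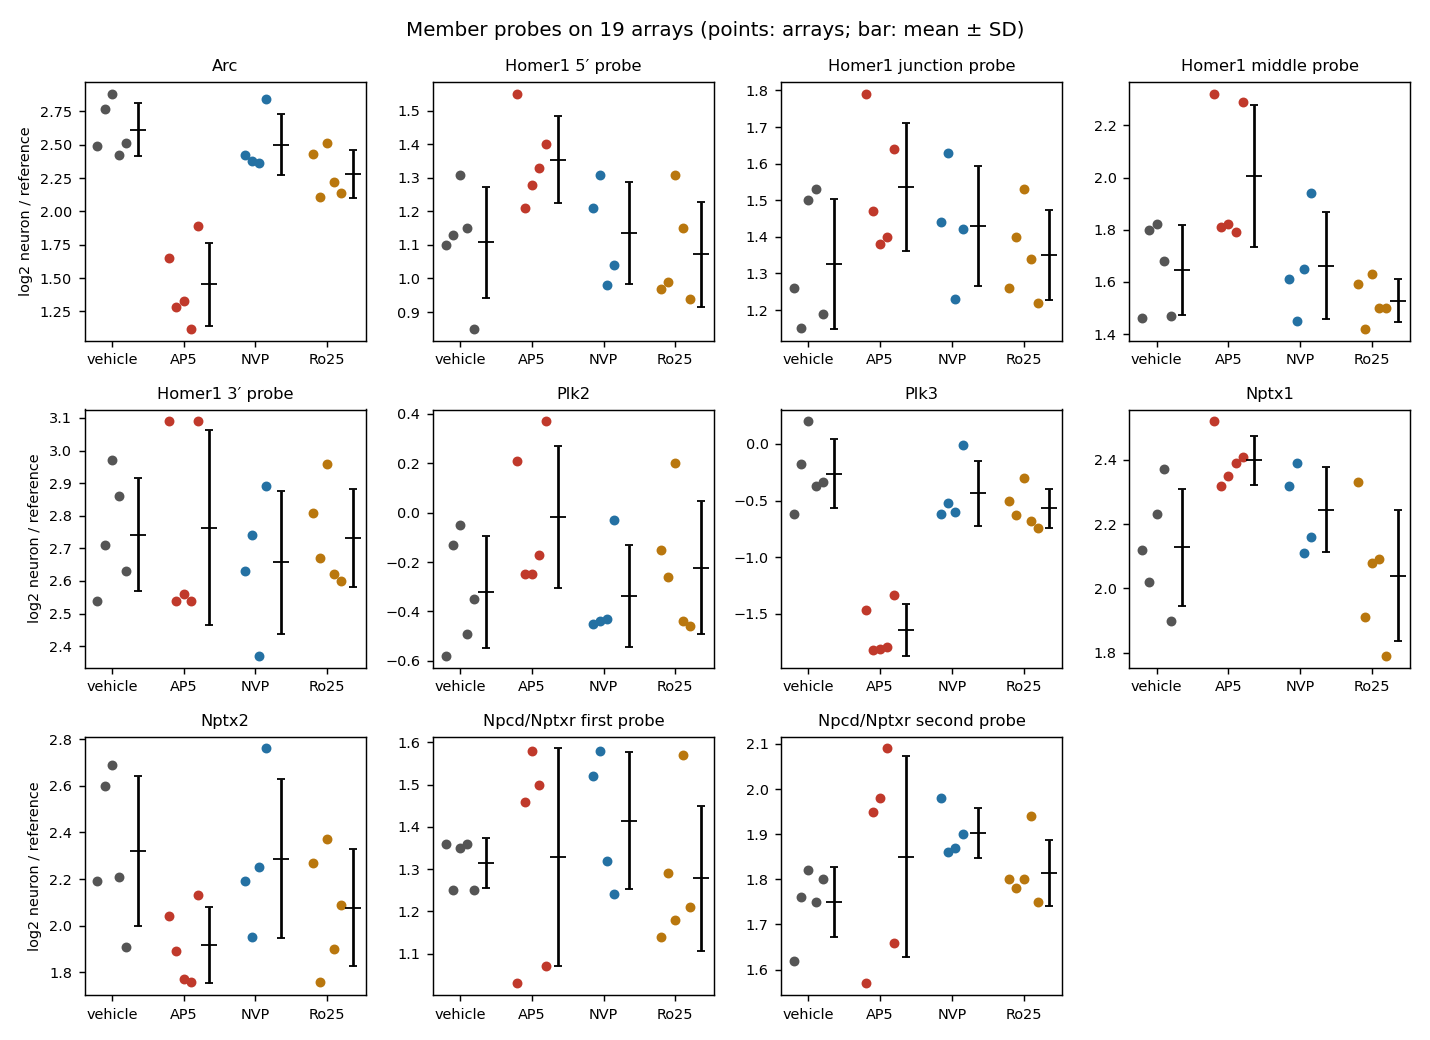
Log2 ratio of neuron over reference RNA for each of the 11 probes, 1 panel per probe and 1 point per array, with the mean and SD of each group beside the points. The 5 AP5 arrays lie below all others for Arc (at most 1.89) and Plk3 (at most -1.33), while AP5 and vehicle arrays overlap in the other 9 panels.

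Arc was measured by 1 probe of 60 bases at chr15:74496422-74496481 (minus strand, mm8 positions from the file headers). On the 5 vehicle arrays its log2 ratio was 2.49, 2.77, 2.88, 2.42 and 2.51. On the 5 AP5 arrays it was 1.65, 1.28, 1.33, 1.12 and 1.89. Every AP5 array lay below every vehicle array, as held for 11.4% of all probes tested. The vehicle mean was 2.61 ± 0.20 and the AP5 mean 1.45 ± 0.31 (SD, n = 5 each), a fall of 1.16 on the log2 scale (SE 0.14, limma adjusted p = 1.22e-05). The AP5 level was thus 44.7% of the vehicle level, with a 95% interval of 36.7% to 54.5%. The red signal itself, before any ratio, ran from 2480 to 3658 intensity units above background with AP5 and from 6098 to 8013 with vehicle. The share of all probes that separate in red before normalization was not counted. The green signal of the reference did not separate the groups, at 457 to 523 and 408 to 594 units. After 6 h in AP5 Arc was still well above background on each array.

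With NVP the 4 arrays gave 2.42, 2.38, 2.36 and 2.84 for Arc, and with Ro25 the 5 arrays gave 2.43, 2.11, 2.51, 2.22 and 2.14. Both sets overlap the vehicle arrays. The log2 difference from vehicle was -0.12 for NVP (95% interval -0.42 to 0.19, limma adjusted p = 0.935) and -0.33 for Ro25 (-0.62 to -0.05, adjusted p = 0.794; unadjusted p = 0.02474). The interval for Ro25 excludes 0 on its own, but the value did not survive adjustment over the array. Set directly against the other antagonists, Arc differed with AP5 by -1.05 from NVP (limma adjusted p = 0.000163) and by -0.83 from Ro25 (adjusted p = 0.000767). In both comparisons the arrays did not overlap, but how many of all probes share this was not counted. Over the array 3.73% of probes were called between AP5 and NVP and 5.66% between AP5 and Ro25.

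Plk3 gave the largest change of the set. Its probe lies at chr4:116626644-116626703 (minus strand, mm8). The vehicle arrays read -0.62, -0.18, 0.20, -0.37 and -0.34, and the AP5 arrays -1.47, -1.82, -1.81, -1.79 and -1.33. Again no AP5 array reached a vehicle array. The means were -1.64 ± 0.23 (SD, n = 5) and -0.26 ± 0.30 (n = 5), a fall of 1.38 (SE 0.15, limma adjusted p = 3.62e-06), or to 38.5% of vehicle (95% interval 31.2% to 47.6%). The red signal fell from 802 to 1311 units above background with vehicle to 324 to 416 with AP5. The NVP arrays read -0.62, -0.52, -0.60 and -0.01, and the Ro25 arrays -0.50, -0.63, -0.30, -0.68 and -0.74. These differed from vehicle by -0.18 (95% interval -0.50 to 0.15, adjusted p = 0.872) and by -0.30 (-0.61 to 0.00, adjusted p = 0.882). Plk3 with AP5 differed from NVP by -1.20 (adjusted p = 7.79e-05) and from Ro25 by -1.07 (adjusted p = 0.000108).

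The calls of Arc and Plk3 against vehicle held under every alternative processing but 1. That 1 bears on slide, which cannot be told apart from AP5 in the comparison with vehicle. With slide as a fixed block, Arc differed by -0.74 (adjusted p = 0.539) and Plk3 by -0.77 (adjusted p = 0.57), a fit in which AP5 is tied to the other groups through AP5 5 alone. Within slide 2, the difference of AP5 5 from the mean of NVP 1 and NVP 3 was -0.50 for Arc and -0.72 for Plk3. The mean of the astrocyte markers was also lower on AP5 5 (2.78) than on NVP 1 (3.84) and NVP 3 (4.06). The part of cell makeup in this difference was not tested. In each group the array lowest in these markers read highest for Arc and for Plk3. NVP 4, on slide 3, was also low in these markers (2.75) and read 2.84 for Arc and -0.01 for Plk3. AP5 5 read 1.89 and -1.33.

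Plk2, the relative of Plk3 in the set, did not share its fall. Its probe lies at chr13:111521585-111521644 (plus strand, mm8). The vehicle arrays read -0.58, -0.13, -0.05, -0.49 and -0.35, and the AP5 arrays 0.21, -0.25, -0.25, -0.17 and 0.37. The means were -0.32 ± 0.23 and -0.02 ± 0.29 (SD, n = 5 each). AP5 was higher by 0.30 (95% interval 0.00 to 0.61), which did not pass (adjusted p = 0.167). AP5 1 and AP5 5 lay above all 5 vehicle arrays, and the other 3 AP5 arrays lay within their range. The mean with NVP was -0.34 ± 0.21 (n = 4) and with Ro25 -0.22 ± 0.27 (n = 5).

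The difference between the kinases was tested on each array, where anything that shifts both log2 ratios by the same amount drops out. Anything that moves the 2 probes unequally remains. Plk2 minus Plk3 was -0.05 ± 0.13 with vehicle, 1.63 ± 0.06 with AP5, 0.10 ± 0.09 with NVP and 0.35 ± 0.10 with Ro25 (SD; n = 5, 5, 4 and 5). The shift with AP5 was 1.68 (exact two-sided permutation p = 0.00794, the smallest this design can give; 0.0298 after adjustment over 15 such tests). With Ro25 it was 0.40, and here too no Ro25 array overlapped a vehicle array (exact p = 0.00794, adjusted 0.0298). With NVP it was 0.16 (exact p = 0.0952, adjusted 0.204). These tests hold no slide term, and Ro25 lay on slides 3 and 4 while vehicle 1, 3, 4 and 5 lay on slide 5. Vehicle 2 shared slide 4 with Ro25 2, 3 and 5. There Plk2 and Plk3 read -0.13 and -0.18 on vehicle 2. They read -0.26 and -0.63 on Ro25 2, 0.20 and -0.30 on Ro25 3, and -0.46 and -0.74 on Ro25 5. Plk2 minus Plk3 differed from vehicle with Ro25 as well as with AP5, although neither kinase passed alone with Ro25. The spread between arrays was also much smaller for this difference than for either probe: an SD of 0.06 with AP5, against 0.29 for Plk2 and 0.23 for Plk3.

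**Figure D2:**
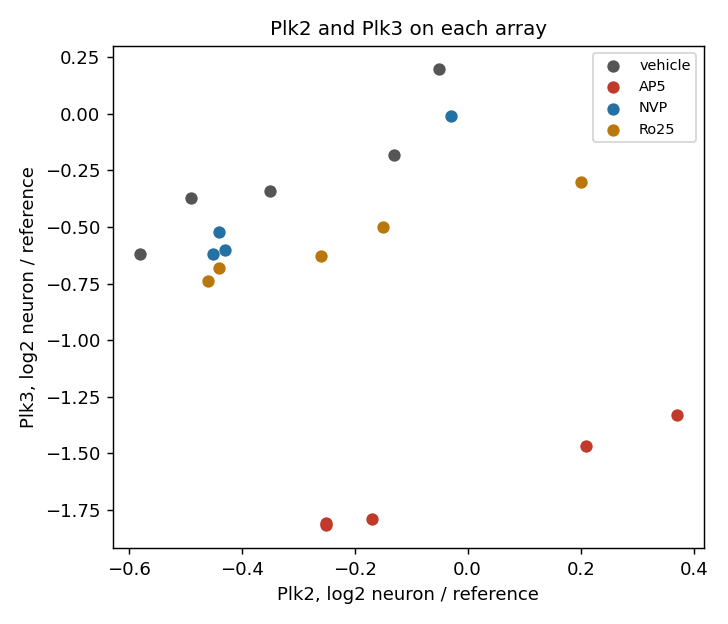
Log2 ratio of Plk2 (x axis) against that of Plk3 (y axis), 1 point per array, coloured by treatment. The points of each treatment run along a rising line, and the AP5 line lies lowest, so that Plk2 minus Plk3 is 1.63 ± 0.06 with AP5 and -0.05 ± 0.13 with vehicle (SD, n = 5 each).

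The stretches before the transcription starts of these kinases are shown as a description. RefSeq's promoter table for GRCm38.p6 holds 3 of the 7 genes (Plk2, Plk3 and Homer1). Each sequence below is the 250 bases before the start, 5′ to 3′ on the gene's strand. Capitals mark the half-site of the cAMP response element, TGACG on either strand, which the calcium-responsive factor CREB can bind. Plk3 is chr4:117133964-117134213 (minus strand) and Plk2 is chr13:110394794-110395043 (plus strand).
Plk3: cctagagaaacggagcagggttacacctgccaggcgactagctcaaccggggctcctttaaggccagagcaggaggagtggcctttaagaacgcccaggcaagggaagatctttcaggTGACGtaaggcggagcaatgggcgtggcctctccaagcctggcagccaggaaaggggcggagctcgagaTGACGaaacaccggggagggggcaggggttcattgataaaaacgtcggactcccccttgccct
Plk2: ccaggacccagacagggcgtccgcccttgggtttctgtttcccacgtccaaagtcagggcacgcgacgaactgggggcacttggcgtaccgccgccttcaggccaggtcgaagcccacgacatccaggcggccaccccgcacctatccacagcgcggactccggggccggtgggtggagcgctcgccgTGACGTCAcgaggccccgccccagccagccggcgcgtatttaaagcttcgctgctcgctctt
The Plk2 stretch holds the full palindrome TGACGTCA, bases 62 to 55 before the start, which is 2 overlapping half-sites. The Plk3 stretch holds 2 separate half-sites, at bases 132 to 128 and 63 to 59 before the start, and no full palindrome. Over all 32851 promoters of the table, 17.8% hold at least 1 half-site in the same window and 1.55% the full palindrome. Neither stretch holds an EGR site (GCGNGGGCG; 4.70% of promoters), an E-box (CACGTG; 6.02%) or a CArG box (1.47%), on either strand. These are matches of letters and not measured binding.

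Homer1 was read by 4 probes along chr13:94405811-94504122 (plus strand, mm8). The 5′ probe lies at chr13:94405811-94405870 and the junction probe spans chr13:94406010-94442522, a distance of 36513 bases in the genome, and so crosses at least 1 intron. Both are described in the files by transcript variant S. The middle probe lies at chr13:94460656-94460715, where the files list an Ensembl transcript, and the 3′ probe at chr13:94504063-94504122, which they describe by transcript variant d. No mm8 annotation was used here, so exon or UTR is not given, and no probe is assigned to the short or the long protein. All 4 were well above background in red on 19 arrays. In green the 5′ probe was so on 9 arrays, so its ratio has a weak denominator on the others.

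The middle probe rose with AP5. The vehicle arrays read 1.46, 1.80, 1.82, 1.68 and 1.47, and the AP5 arrays 2.32, 1.81, 1.82, 1.79 and 2.29. AP5 1 and AP5 5 lay above all vehicle arrays, and the other 3 AP5 arrays sat at the top of the vehicle range. The means were 2.01 ± 0.27 and 1.64 ± 0.18 (SD, n = 5 each), a rise of 0.36 (SE 0.11, limma adjusted p = 0.0368), or to 128% of vehicle (95% interval 109% to 152%). The call was lost when AP5 1 (0.28, adjusted p = 0.11), AP5 5 (0.29, 0.0949), vehicle 1 (0.31, 0.0933), vehicle 4 (0.37, 0.0532) or vehicle 5 (0.32, 0.0999) was left out. It was also lost without background correction (0.33, 0.0545), in the deposited processed signals (0.34, 0.153), in red alone (0.25, 0.149), with marked spots kept (0.14, 0.969), with slide as a fixed block (0.53, 0.622) and without background flags (0.16, 0.758). The red signal above background, before normalization, was higher on each AP5 array (521 to 688 units) than on any vehicle array (374 to 410). The share of all probes that separate in red was not counted. NVP and Ro25 gave means of 1.66 ± 0.20 (n = 4) and 1.53 ± 0.08 (n = 5), and AP5 was higher than Ro25 by 0.48 (limma adjusted p = 0.0163). That call was lost in red alone (0.37, adjusted p = 0.0527), with marked spots kept (0.59, 0.326), without background flags (0.47, 0.247), with slide as a fixed block (0.81, 0.288) and without AP5 1 (0.40, 0.0531).

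The other Homer1 probes gave smaller differences, none of which passed. The 5′ probe was at 1.36 ± 0.13 with AP5 and 1.11 ± 0.17 with vehicle, a difference of 0.25 (95% interval 0.05 to 0.44, adjusted p = 0.0732). The junction probe was at 1.54 ± 0.17 and 1.33 ± 0.18, a difference of 0.21 (0.01 to 0.41, adjusted p = 0.15). The 3′ probe was at 2.76 ± 0.30 and 2.74 ± 0.17, a difference of 0.02 (-0.24 to 0.29, adjusted p = 0.928). On this last probe AP5 1 and AP5 5 both read 3.09 and the other 3 AP5 arrays 2.54 to 2.56, a split with no array between. Homer1 thus did not share the fall of Arc on any of its probes.

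Whether the Homer1 probes responded unequally was tested on the per-array difference of each from the 3′ probe, the brightest. For the middle probe this difference was -0.76 ± 0.03 with AP5 and -1.10 ± 0.11 with vehicle (SD, n = 5 each), with no overlap (exact permutation p = 0.00794, adjusted over 9 tests 0.0714). None of the 9 tests passed after adjustment. Arc against the Homer1 3′ probe did pass: Arc minus Homer1 was -1.31 ± 0.11 with AP5 and -0.13 ± 0.18 with vehicle (exact p = 0.00794, adjusted 0.0298). With Ro25 it was -0.45 ± 0.07 (exact p = 0.0238, adjusted 0.0714) and with NVP -0.16 ± 0.16 (exact p = 0.77).

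The Homer1 stretch before the first of its 2 RefSeq starts, chr13:93303507-93303756 (plus strand, GRCm38.p6), is shown for comparison with the kinases, with the same half-sites in capitals.
Homer1: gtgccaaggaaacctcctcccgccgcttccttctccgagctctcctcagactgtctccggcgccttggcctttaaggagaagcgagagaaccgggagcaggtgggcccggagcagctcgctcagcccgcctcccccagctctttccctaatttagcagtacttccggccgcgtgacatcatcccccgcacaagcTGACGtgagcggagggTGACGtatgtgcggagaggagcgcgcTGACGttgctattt
It holds 3 half-sites, at bases 56 to 52, 40 to 36 and 14 to 10 before the start, and no full palindrome. The stretch before the second start holds none. Half-sites lie before Plk3, Plk2 and Homer1, and RefSeq's promoter table held no entry for Arc. Whether they bear on the response to AP5 was not tested.

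Among the pentraxins no ratio passed against vehicle. The difference between the 2 secreted ones shifted with AP5 in the main processing but not in the deposited processed signals. Nptx1 was measured at chr11:119355752-119355811 (minus strand, mm8). Its vehicle arrays read 2.12, 2.02, 2.23, 2.37 and 1.90, and its AP5 arrays 2.52, 2.32, 2.35, 2.39 and 2.41. The means were 2.13 ± 0.18 and 2.40 ± 0.07 (SD, n = 5 each), a difference of 0.27 (95% interval 0.07 to 0.47, limma adjusted p = 0.0572). AP5 was higher than Ro25 by 0.36 (adjusted p = 0.0286), a call lost in red alone (0.19, adjusted p = 0.152), in the deposited processed signals (0.66, 0.105), with marked spots kept (0.55, 0.57), without background flags (0.40, 0.678) and with slide as a fixed block (0.26, 0.584). It was also lost without the 4 arrays lowest in astrocyte markers (0.37, 0.0817) and when AP5 1, AP5 4, AP5 5, Ro25 2 or Ro25 5 was left out (0.30 to 0.36, adjusted p = 0.0511 to 0.0846). The reference RNA held almost no Nptx1 signal: the green channel was not well above background on any array, at 4 to 13 units. The ratio of this gene therefore rests on the red channel, whose signal was 315 to 439 units with AP5 and 236 to 364 with vehicle and overlapped.

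Nptx2, the pentraxin known to follow activity, was measured at chr5:144810563-144810622 (plus strand, mm8). By ratio, the vehicle arrays read 2.19, 2.60, 2.69, 2.21 and 1.91, and the AP5 arrays 2.04, 1.89, 1.77, 1.76 and 2.13. The groups overlap, and the difference was -0.40 (95% interval -0.73 to -0.07, adjusted p = 0.0892). The signals behind the ratio, before normalization, did not overlap between AP5 and vehicle, which shared no slide. The share of all probes whose signals do so was not counted. In red, the vehicle arrays read 801, 838, 1269, 673 and 597 units above background and the AP5 arrays 387, 429, 340, 339 and 434. In green, which carries the same reference RNA on every array, they read 53, 52, 91, 56 and 48 against 29, 28, 20, 28 and 34. The reference channel of this probe was thus also lower on each AP5 array, and the ratio differed less than red did. In red alone, quantile normalized, Nptx2 differed with AP5 by -1.18 (limma adjusted p = 0.00351). In the deposited processed signals the ratio had the opposite sign, at 0.30 (adjusted p = 0.143). Why green followed red on this probe was not tested. For Arc the green signal did not follow in this way, as given above.

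**Figure D3:**
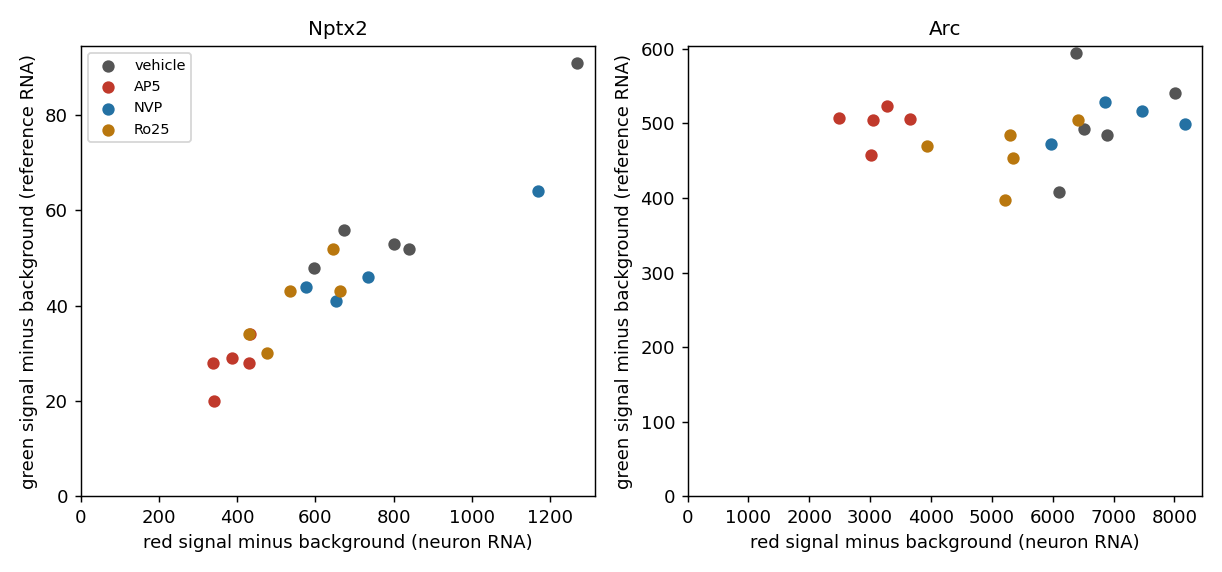
Red signal of the neuron RNA (x axis) against green signal of the reference RNA (y axis), both in intensity units minus local background, for Nptx2 (left) and Arc (right), 1 point per array. For Nptx2 the AP5 arrays lie at the low end of both channels (340 and 20 units on AP5 3), next to Ro25 5 (429 and 34 units) and Ro25 2 (476 and 30 units), while for Arc they are lowest in red and lie among the other arrays in green.

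On the other treatments Nptx2 read 2.19, 1.95, 2.25 and 2.76 with NVP and 2.27, 1.76, 2.37, 1.90 and 2.09 with Ro25, all overlapping vehicle. Its red signal was 577 to 1168 units with NVP and 429 to 662 with Ro25. The per-array difference of Nptx1 from Nptx2 was 0.48 ± 0.13 with AP5 and -0.19 ± 0.32 with vehicle, a shift of 0.67 with no overlap (exact permutation p = 0.00794, adjusted 0.0298). Leaving out any 1 of the 5 AP5 arrays took the adjusted p to 0.0595 with a shift of 0.63 to 0.72, and in the deposited processed signals the shift was 0.09 (adjusted p = 0.913). With NVP and with Ro25 the same difference was -0.04 ± 0.43 and -0.04 ± 0.24, and it did not pass (exact p = 0.571 and 0.437).

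The Npcd/Nptxr probes, at chr15:79617101-79617160 (first) and chr15:79613941-79614000 (second; minus strand, mm8), did not pass in any comparison. On the second probe the 4 NVP arrays read 1.86 to 1.98 and the vehicle arrays 1.62 to 1.82, at a difference of 0.15 (limma adjusted p = 0.712). How many of all probes do not overlap between NVP and vehicle was not counted. With AP5 the first was at 1.33 ± 0.26 and the second at 1.85 ± 0.22, against 1.32 ± 0.06 and 1.75 ± 0.08 with vehicle (SD, n = 5 each). The differences were 0.01 (95% interval -0.21 to 0.23, adjusted p = 0.955) and 0.10 (-0.07 to 0.27, adjusted p = 0.426). The AP5 arrays split on both probes. AP5 1 and AP5 5 read 1.03 and 1.07 on the first, and the other 3 AP5 arrays 1.46 to 1.58. On the second they read 1.57 and 1.66, against 1.95 to 2.09. These are the same 2 arrays that read highest for Homer1 and Plk2.

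**Figure D4:**
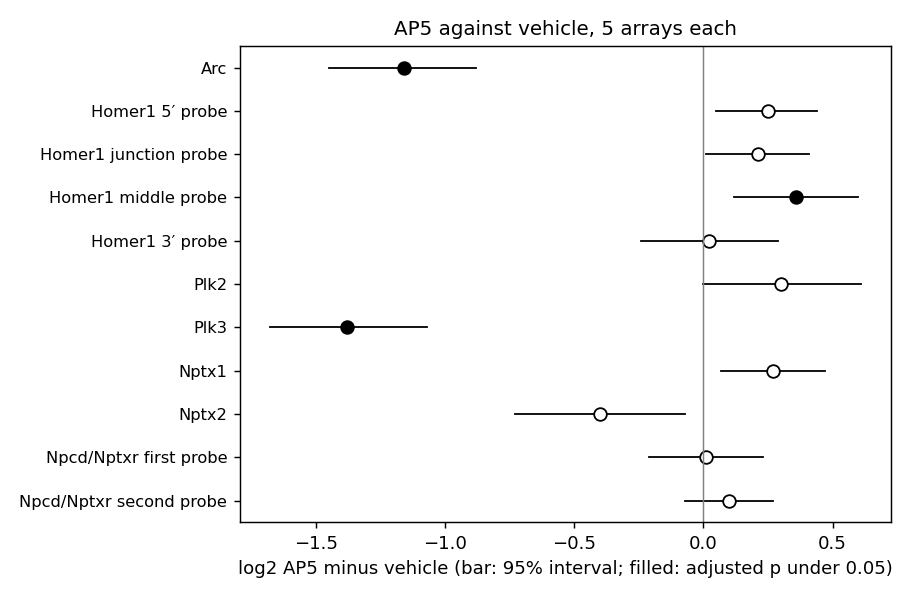
Log2 difference of AP5 minus vehicle for each of the 11 probes (points) with its 95% interval (bars), 5 arrays a group. Filled points passed the limma test after adjustment over 28650 probes: Arc (-1.16), Plk3 (-1.38) and the middle probe of Homer1 (0.36).

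The level of astrocyte markers moved with several members inside every group. In each group 1 array had a mean of the 12 astrocyte markers far below the rest: vehicle 3 (2.70), AP5 5 (2.78), NVP 4 (2.75) and Ro25 3 (2.57), against 3.48 to 4.19 on the other 15. On that array Arc, Plk2, Plk3 and Nptx2 each had the highest log2 ratio of their group, in all 4 groups. Arc, for example, read 2.88, 1.89, 2.84 and 2.51 there. The Homer1 3′ probe was highest there too (2.97, 3.09, 2.89 and 2.96), level with AP5 1 in the AP5 group. The share of all probes with this pattern was not counted. The group means of the astrocyte markers differed little, at 3.49 ± 0.46 with vehicle, 3.64 ± 0.53 with AP5, 3.60 ± 0.58 with NVP and 3.50 ± 0.55 with Ro25 (SD). The part of cell makeup in the members' levels was not tested, but 2 settings added after the data were seen bear on the calls. With the astrocyte mean as a covariate, 7 of 9 member probes were called with AP5 against vehicle: Arc (-1.10, limma adjusted p = 9.69e-09), Plk3 (-1.31, 2.05e-10), Plk2 (0.37, 0.000607), the middle (0.40, 0.00204) and 5′ (0.27, 0.0212) probes of Homer1, Nptx1 (0.28, 0.0331) and Nptx2 (-0.34, 0.0314). In that fit 7701 of all probes were called. With the 4 arrays left out, Arc (-1.20, 2.9e-06) and Plk3 (-1.34, 4.57e-07) were called, and the Homer1 middle probe was not (0.34, 0.0509).

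**Figure D5:**
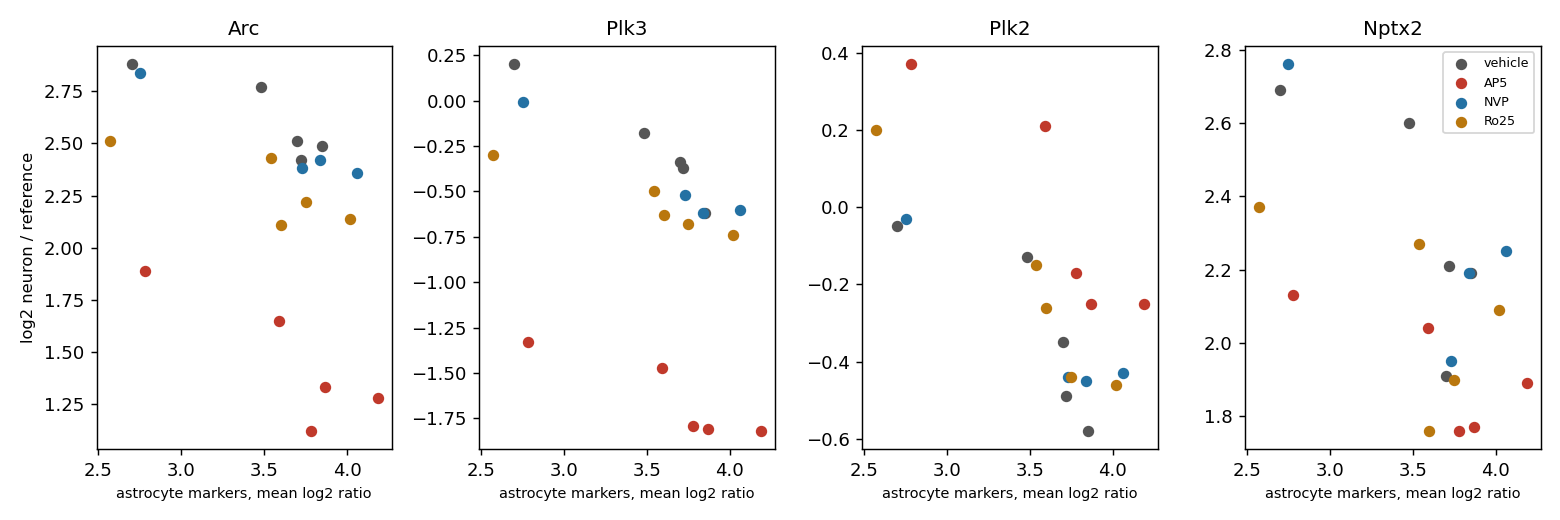
Mean log2 ratio of the 12 astrocyte markers (x axis) against the log2 ratio of Arc, Plk3, Plk2 and Nptx2 (y axes), 1 point per array, coloured by treatment. In each treatment the leftmost array (2.57 to 2.78) is the highest for each of the 4 genes, and the AP5 points of Arc and Plk3 lie below the others along the whole axis.

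The genes whose levels ran most like each member over the 19 arrays are given as a description, since arrays share treatment and cell makeup. For Arc they were Dusp6 (Pearson r = 0.98), which encodes a phosphatase of the kinase ERK, and Hunk (0.967). For Plk3 they were 5033430I15Rik (0.984), Myo1c (0.981) and Dusp6 (0.98). Plk2 ran with Jade1 (0.979), Fnip2 (0.967) and Lmtk2 (0.957), none of which is among the 3 of Plk3. The Homer1 3′ probe ran with Ap1ar (0.946), Tnik (0.925) and Nup88 (0.918). Nptx1 ran with the AMPA receptor subunit gene Gria2 (0.893), Fmn2 (0.891) and Sowaha (0.875). Nptx2 ran with Spry1 (0.92), an inhibitor of receptor tyrosine kinase signalling, Tgfb1i1 (0.916) and Mxd3 (0.891), and the second Npcd/Nptxr probe with Klc1 (0.908), Slc39a3 (0.891) and Abcf1 (0.889).

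Lists of the members' partners are given by their counts, to be read against the 10.2% of all probes called higher and 6.76% called lower with AP5. Of 17 measured Homer scaffold and group I metabotropic receptor partners, 5 rose and none fell (list median 0.20, against 0.01 over all probes tested). Among them were Grm5 (0.49, SE 0.14, limma adjusted p = 0.0224), which encodes a group I receptor, the Homer1 paralogs Homer2 (0.34, SE 0.08, 0.0063) and Homer3 (0.24, SE 0.07, 0.0217), and Dlgap3 (0.36, SE 0.10, 0.0139), a scaffold protein. The 4 probes of Grm5 ranged from 0.07 to 0.56. Of 16 pentraxin relatives and extracellular AMPA receptor partners, 6 rose and 1 fell (median 0.14). Olfm1 (0.60, SE 0.07, 5.71e-06) and the AMPA receptor subunit genes Gria2 (0.38, SE 0.06, 0.000533) and Gria1 (0.54, SE 0.12, 0.00313) rose, and Mmp9 (-0.19, SE 0.06, 0.0439) fell. The 3 probes of Gria2 ranged from 0.05 to 0.38.

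Over the whole array 17.0% of probes were called, and the next 2 lists held about that share or less. Of 12 polo-like kinases and substrates other than the members, 2 rose and none fell (median 0.10), among them the kinase gene Plk5 (0.26, SE 0.08, limma adjusted p = 0.0326). Of 18 Arc partners, 2 rose and none fell (median 0.02): Camk2b (0.29, SE 0.06, 0.00264), a calmodulin-dependent kinase subunit, and the endophilin gene Sh3gl3 (0.29, SE 0.08, 0.0157). Among cell type markers, 3 of 10 general neuronal, 4 of 10 excitatory and 5 of 12 GABAergic markers were higher with AP5 and none lower. So were 2 of 11 oligodendrocyte markers (Sox10, 0.56, and Olig2, 0.27), 1 of 12 astrocyte markers (Slc1a2, 0.38) and 1 of 10 endothelial, mural or fibroblast markers (Kdr, 1.28), while 2 of 8 microglial markers were lower (Tmem119, -0.29, and Trem2, -0.26). The part of cell makeup in the lists' changes was not tested.

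In both lists of activity-regulated genes more members fell than rose, where over all probes 6.76% were called lower and 10.2% higher. Of 18 immediate early transcription factors, 10 fell and 3 rose with AP5 (median -0.36). The nuclear receptor gene Nr4a1 fell by 1.45 (SE 0.08, limma adjusted p = 4.23e-09) and Egr1 by 0.71 (SE 0.13, 0.00128). Npas4, a factor specific to neurons and to calcium entry, fell by 1.33 (SE 0.13, 1.26e-06), but it was well above background on 1 of 5 AP5 arrays, so its size is uncertain. Jun (0.54, SE 0.08, 2e-04), Klf4 (0.30, SE 0.06, 0.00297) and Atf3 (0.67, SE 0.14, 0.00349) rose. Of 26 other activity-induced effectors, 12 fell and 3 rose (median -0.22). Bdnf, the neurotrophin gene, fell by 1.79 (SE 0.13, 5.24e-08), Ptgs2, the inducible cyclooxygenase, by 1.49 (SE 0.16, 3.55e-06) and Rasl11a, a small GTPase gene, by 1.20 (SE 0.09, 3.2e-08). Gadd45g (0.80, SE 0.05, 1.68e-08), Gadd45b (0.66, SE 0.11, 0.000492) and the secretogranin gene Scg2 (0.37, SE 0.11, 0.0321) rose. Arc and Plk3 thus fell by amounts between those of Egr1 and Bdnf, while no probe of Plk2, Homer1 or Nptx1 was called lower. With NVP and with Ro25 no gene of these 6 lists passed against vehicle. Between NVP and Ro25 themselves 0% of all probes were called (484 had an unadjusted p under 0.05), and no member passed: Arc was 0.22 higher with NVP (95% interval -0.09 to 0.52) and Plk3 0.13 higher (-0.20 to 0.45).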

How the data were processed

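The 19 arrays are two-colour Agilent mouse arrays, each with 45018 features (43379 gene spots, 41174 probes). Per the file headers, the intensity of each spot comes from Feature Extraction 9.5.3.1, while the submitters' processing notes name version 11.0. The deposited log10 ratio and the authors' log2 table of the series were used as alternatives; per the file headers, the former is background-subtracted and dye-normalized, and for the latter no source here states how it was centred. Its columns ran at a slope of 0.989 to 1.01 against the ratios computed here.

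Spots marked non-uniform or as outliers were dropped (117 to 266 per array, 1642 on vehicle 5), the background was corrected with normexp (offset 50), and the log2 ratio was loess-normalized array by array. Probes with red well above background on at least 4 arrays were kept (28653; 28650 could be fitted), and spots of 1 probe were averaged. Median red signals ran from 135.5 to 177.8, with 0 saturated gene spots. Precision is limited by how many arrays each group has. A single limma model (version 3.58.1, R 4.3.3) held all 19 arrays and compared the groups, two-sided, adjusted by Benjamini-Hochberg with a threshold of 0.05. Differences between probes were tested with exact two-sided permutation tests over arrays. The limma fit was first tested on simulated data with known changes. Of the probes, 23477 were named through accession, 6678 through symbol and 2891 through synonym in a RefSeq table (GRCm38.p6), and 8128 kept the files' name.

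The members, lists and tests were chosen with earlier results of these data known. Named are all member probes, up to 3 called genes each way with the smallest adjusted p per list (the brightest probe of a gene; Grm5 and Homer3, chosen after their values were seen, are added), and the 3 genes most correlated with each member. Some genes that this rule names are not reported here. Alternatives were other background corrections, normalizations and filters, spots marked by the scanner kept, slide and replicate blocks, gene means, the authors' table, and each array left out.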

Additional observations from a re-analysis of the deposited data

Results flagged for a closer look

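Of 44 groups of arrays checked over the 11 probes, 4 held an array whose gap to its nearest neighbour was large for the range of the group, where chance gives about 1 in 20. For 3 of them it was NVP 4: Arc read 2.84 there (nearest array 2.42), Plk2 -0.03 (nearest -0.43) and Plk3 -0.01 (nearest -0.52). NVP 4 was also the array of its group lowest in astrocyte markers (2.75). The fourth was the second Npcd/Nptxr probe on Ro25 4, at 1.94 (nearest 1.80).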

How the results depend on the processing

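Arc and Plk3 kept direction and call in AP5 against vehicle, NVP and Ro25 under all alternatives but slide as a fixed block, and the cause of the other changes was not tested. Of the 9 member probes, 3 were called in AP5 against vehicle: 0 with slide as a fixed block, 6 with slide as a random block, 7 with the astrocyte covariate and 2 to 4 with an array left out. In AP5 against NVP 2 were called, 0 with the fixed block and 4 with the covariate. Of all probes, 1068 were called there in the main fit, 184 with the fixed block and 2178 with the covariate. In AP5 against Ro25 4 were called, 0 with the fixed block, 2 in red alone, with marked spots kept or without background flags, and 2 (AP5 1 left out) to 5 (Ro25 3 left out) with an array left out. Of the differences between members 4 passed, and 3 to 5 with an array left out. Over all probes, AP5 against vehicle gave 4869 calls, from 2 with the fixed block to 7701 with the covariate, and 959 with marked spots kept, 1481 without background flags, 2993 in red alone and 2818 in the authors' table. With slide as a random block 6885 of all probes were called, so more calls came over the whole array and not only among the members.

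These AP5 minus vehicle values, none of them called, changed sign. The Homer1 junction probe was at 0 in red alone. The Homer1 3′ probe was at -0.01 without background correction, -0.11 in red alone and without background flags, -0.12 with marked spots kept, 0 without the 4 arrays lowest in astrocyte markers, and -0.06 to 0.08 with an array left out. Nptx1 was at -0.03 with marked spots kept and Nptx2 at 0.30 in the deposited signals. The first Npcd/Nptxr probe was at -0.05 without background correction, -0.10 in the deposited signals and without background flags, -0.07 in red alone, -0.11 with marked spots kept, -0.31 with the fixed block, -0.01 with the covariate, and -0.05 to 0.09 with an array left out. The second was at -0.20 in red alone and -0.23 with the fixed block. Plk3 in NVP against Ro25 was at -0.01 to 0.19 with an array left out.

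Same-numbered arrays did not deviate together throughout (r from -0.608 to 0.736, over 0.1 in 9 of 27 pairs). These correlations were not tested and cannot exclude that the numbers pair samples. With a replicate block 3 member probes were called in AP5 against vehicle: Arc (-1.16, limma adjusted p = 0.000176), Plk3 (-1.38, 7.23e-05) and Nptx1 (0.27, 0.0487), and not the Homer1 middle probe (0.36, 0.0686). In that fit 4256 of all probes were called. A green signal near background limits the ratios of Nptx1 and the Homer1 5′ probe.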
